A study of Mus musculus with 4 samples.

Results

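The sinusoidal endothelial scavenger program was followed as 10 genes, Stab1, Stab2, Mrc1, Fcgr2b, Lyve1, Clec4g, Oit3, Ehd3, Gata4 and Maf, chosen by symbol among the 55488 genes of the deposited tables. All 10 were listed once. The cells came from 4 untreated mouse livers, with 1 mouse and 1 single-cell RNA library per genotype. The WT mouse was genetically unmodified and carried neither floxed alleles nor Cre. In the YAPKO, TAZKO and DKO mice, Cre expressed from the albumin promoter deleted floxed YAP, floxed TAZ or both in hepatocytes (HCs) and biliary epithelial cells (BECs), so that the endothelial cells (ECs) and Kupffer cells (KCs) described here kept intact alleles. The age of these mice is not given in the sources used here. HCs and non-parenchymal cells were isolated separately and mixed again before loading, so that shares of cell types follow the mixing.

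Liver sinusoids are lined by ECs that have open pores and no continuous basement membrane. These ECs take waste molecules from the blood through scavenger and lectin receptors, carry them inward in coated vesicles and return the receptors to the surface. The stabilins Stab1 and Stab2, the mannose receptor Mrc1, the Fc receptor Fcgr2b and the hyaluronan receptor Lyve1 bind ligands, Clec4g is a sinusoidal C-type lectin, Ehd3 belongs to the family of proteins that shape and recycle endocytic membranes, and Gata4 and Maf are transcription factors of sinusoidal ECs. Vwf, the von Willebrand factor gene, is used as a marker of the ECs of larger vessels.

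Promoter windows, taken from RefSeq on GRCm38.p6 and running from 250 bases before to 50 bases after the start site, were at hand for 6 members, Stab1, Stab2, Mrc1, Fcgr2b, Clec4g and Ehd3. Those of the stabilins are shown because both genes differed in each of the contrasts within ECs described here, and that of Clec4g because its level differed in one of them and not in the other. All 3 genes lie on the minus strand and the windows are written 5′ to 3′ in the direction of transcription. Stab1 covers chr14:31168592-31168891, Stab2 chr10:87007893-87008192 and Clec4g chr8:3720602-3720901.
Stab1: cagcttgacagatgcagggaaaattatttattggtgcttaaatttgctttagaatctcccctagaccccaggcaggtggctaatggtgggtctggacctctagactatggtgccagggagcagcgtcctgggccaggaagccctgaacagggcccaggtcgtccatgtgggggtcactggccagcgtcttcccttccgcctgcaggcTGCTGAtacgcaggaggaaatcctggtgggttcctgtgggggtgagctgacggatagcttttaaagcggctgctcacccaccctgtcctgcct
Stab2: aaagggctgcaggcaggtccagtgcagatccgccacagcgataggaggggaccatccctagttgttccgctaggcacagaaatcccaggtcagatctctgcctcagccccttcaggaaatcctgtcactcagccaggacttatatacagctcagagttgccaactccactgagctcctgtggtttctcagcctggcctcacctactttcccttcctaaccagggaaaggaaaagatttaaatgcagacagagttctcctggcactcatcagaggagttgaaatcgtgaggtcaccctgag
Clec4g: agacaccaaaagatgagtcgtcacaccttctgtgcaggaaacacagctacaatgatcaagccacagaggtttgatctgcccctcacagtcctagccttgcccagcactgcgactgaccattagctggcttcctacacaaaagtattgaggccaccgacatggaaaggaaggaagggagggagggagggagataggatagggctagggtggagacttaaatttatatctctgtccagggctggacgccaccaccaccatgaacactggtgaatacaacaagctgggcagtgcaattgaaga
Capitals mark the letters TGCTGA, part of a MAF recognition element. On both strands, TGCTGA was present in 1 of the 6 member windows and in 19.5% of 32851 promoter windows of the same length. In Stab1 it began 43 bases before the start. The letters AGATAA, a form of the GATA element that does not overlap TGCTGA, were in 0 of the 6 member windows and in 11.2% of all windows. Other forms, such as the AGATAG in the Clec4g window, were not counted. These matches describe letters in a window and do not mark binding.

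Filters on the number of detected genes (500 to 6000) and on mitochondrial UMIs (10% or less) left 30362 of the deposited barcodes, 7155 in WT, 6275 in YAPKO, 8638 in TAZKO and 8294 in DKO. A UMI is a unique molecular identifier, which tags 1 captured transcript near its 3′ end. Between 9 and 26 kept barcodes were shared by any pair of libraries. The median depth of the kept cells ranged from 3555.5 UMIs in TAZKO to 7337 in YAPKO. Clustering, from which the 10 members were left out, gave 6358 ECs, with 1965 in WT, 1343 in YAPKO, 1767 in TAZKO and 1283 in DKO. KCs numbered 626, 571, 1126 and 650 in the same order. Levels are given as CPM, the UMIs of a gene scaled to 1000000 UMIs of the same group of cells. Because each genotype has 1 library, differences between genotypes have no replicate check and carry no p-value. Their 95% intervals cover counting error only.

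The program's genes were more abundant in ECs than in KCs, and they made up a similar part of EC RNA in each library. The 10 genes together gave 2.04% of all EC UMIs in WT, 1.84% in YAPKO, 1.99% in TAZKO and 1.81% in DKO. For each of the 10, the lowest of the 4 EC libraries lay above the highest of the 4 KC libraries. The share of all genes separated in this way was not counted, so this describes the levels only. Other cells also held EC transcripts, called carried EC RNA here. Free RNA and attached cells were not told apart as their source. To read the members' values, the median level of 11 endothelial markers in each cell type was set against the same markers in ECs. In KCs this median was 0.83% to 2.24% of the EC level (0.455% to 1.47% without the top 8% of doublet scores given by Scrublet), in HCs 0.378% to 1.22%, in B cells 0.732% to 4.505%, and in macrophages or monocytes 8.88% to 13.4%. Only a member well above that share of its own EC level was read as more abundant than the carried EC RNA. The spread of the 11 markers around their median is not given here, so a member close to the share was not read as above it.

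**Figure D1:**
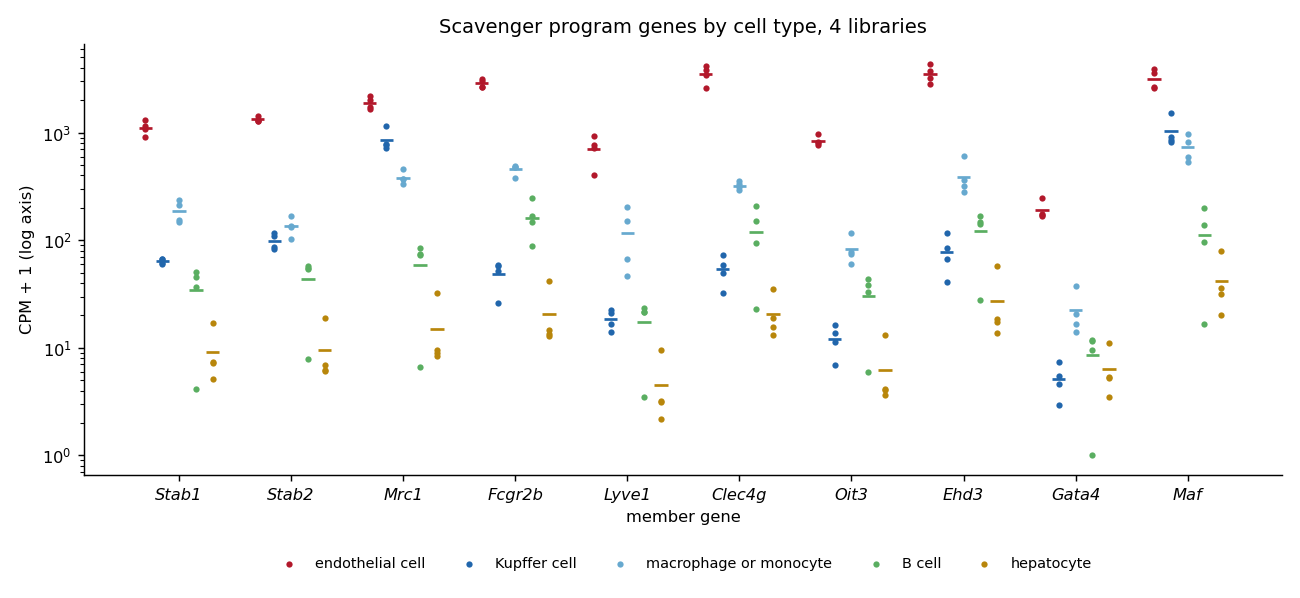
Level of each member (CPM plus 1, log axis) in 5 cell types; points are the 4 libraries and dashes their means. For every member all EC points lie above all KC points, and Mrc1 and Maf are the members whose KC points reach 712 and 820 CPM or more.

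Stab1 (chromosome 14, 31139013 to 31168641, GRCm38) and Stab2 (chromosome 10, 86841198 to 87008025) encode large scavenger receptors for hyaluronan, oxidised lipoproteins and other ligands. In ECs, Stab1 had 1314 CPM in WT, 1089 in YAPKO, 1154 in TAZKO and 905 in DKO. Stab2 had 1439, 1315, 1296 and 1285 CPM in the same order. In KCs, Stab1 ranged from 59.0 to 66.1 CPM and Stab2 from 82.3 to 116 CPM. These were 4.57% to 7.31% of the EC level for Stab1 and 6.41% to 8.94% for Stab2, 2.55 to 6.54 times and 2.92 to 7.85 times the share of EC marker RNA in the same KCs. In KCs with no UMI of 7 endothelial genes, 42.8 to 51.9 CPM of Stab1 and 64.9 to 98.9 CPM of Stab2 were still counted. Both stabilins were thus found in KCs beyond the carried EC RNA, at a level far below that of ECs. Without batch correction of the clustering, KCs held EC markers at 8.81% to 14.4% of the EC level, and the stabilins lay nearer to that share, at 1.18 to 1.43 times for Stab1 and 1.15 to 1.52 times for Stab2. With the cells of highest Scrublet doublet score (top 8%) left out, they lay farther above it, at 3.15 to 11.06 times and 5.21 to 13.7 times. In macrophages or monocytes without such UMIs, Stab1 ranged from 23.0 to 157 CPM, highest in YAPKO, whereas Stab2 ranged from 2.09 to 11.2 CPM.

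Mrc1 (chromosome 2, 14229392 to 14332057) encodes the mannose receptor CD206, which binds glycoproteins and collagen fragments. Its EC level was 2211 CPM in WT, 1740.5 in YAPKO, 2019.4 in TAZKO and 1652 in DKO. KCs had 771, 782, 1146 and 712 CPM, or 34.9% to 56.8% of the EC level, with little difference when KCs with endothelial UMIs were left out (702 to 1148 CPM). After KCs were thinned to 1000 UMIs, with 34 shallower KCs left out in TAZKO and 1 to 6 in the other libraries, 49.4% to 65.0% had an Mrc1 UMI, against 0.230% to 2.24% of the B cells, which should lack the gene and carried EC RNA. Mrc1 was therefore shared between ECs and KCs. In macrophages or monocytes without endothelial UMIs, 113 to 194 CPM were measured.

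Fcgr2b (chromosome 1, 170958617 to 170976547) encodes the inhibitory receptor for IgG, which in sinusoidal ECs clears small immune complexes. ECs had 3187 CPM in WT, 2677 in YAPKO, 2669.9 in TAZKO and 3044 in DKO. KCs had 25.2 to 58.2 CPM, 0.858 to 1.13 times their share of EC marker RNA, so that Fcgr2b was not detectable in KCs beyond carried RNA at this depth. Cells without endothelial UMIs had 189 to 304 CPM among macrophages or monocytes, 96.1 to 148 CPM among conventional dendritic cells and 62.9 to 81.6 CPM among B cells. Outside ECs the gene was thus found in macrophages or monocytes, conventional dendritic cells and B cells. Without batch correction the mean KC level of Fcgr2b was 304 CPM in place of 47.8 CPM, and it was then 0.944 to 1.01 times the share of EC marker RNA.

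Lyve1 (chromosome 7, 110850607 to 110863239) encodes a hyaluronan receptor shared with lymphatic ECs. Its EC level was 773 CPM in WT, 938 in YAPKO, 715 in TAZKO and 399 in DKO. DKO was the lowest library by far. KCs held 12.9 to 21.4 CPM, 0.986 to 2.57 times the share of EC marker RNA, with the highest ratio in YAPKO. In KCs without endothelial UMIs, 16.4 CPM remained in YAPKO and 4.14 to 4.46 CPM in the other libraries. Macrophages or monocytes held Lyve1 at 0.784 to 2.11 times the share of EC marker RNA. Without endothelial UMIs they had 28.7 CPM in WT, on 20 UMIs, and 2.74 to 10.4 CPM in the other libraries. After thinning to 1000 UMIs, 41.5% of WT ECs had a Lyve1 UMI, 46.6% of YAPKO ECs, 41.4% of TAZKO ECs and 24.9% of DKO ECs, and in B cells 0.172% to 0.911%.

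Clec4g (chromosome 8, 3707064 to 3720651) and Oit3 (chromosome 10, 59422958 to 59441778), which encodes a secreted protein with a zona pellucida domain, were not detectable in KCs beyond carried EC RNA. Clec4g in ECs was 4168 CPM in WT, 3860.3 in YAPKO, 2580.1 in TAZKO and 3445 in DKO. Oit3 was 797, 762, 963 and 824 CPM. Their KC levels were 0.762 to 0.988 times and 0.704 to 0.939 times the share of EC marker RNA, and in KCs without endothelial UMIs they ranged from 7.79 to 14.9 CPM for Clec4g and from 0.756 to 2.92 CPM for Oit3. Ehd3 (chromosome 17, 73804134 to 73832094) was 3712 CPM in WT ECs, 3207 in YAPKO, 4388 in TAZKO and 2828 in DKO. Its KC level was 1.07 to 1.49 times the share of EC marker RNA, and 12.4 to 32.9 CPM remained in KCs without endothelial UMIs, most in TAZKO. Whether KCs express Ehd3 beyond carried EC RNA was not decided from these values. T cells without endothelial UMIs held 34.7 to 62.8 CPM of Ehd3.

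Gata4 (chromosome 14, 63198922 to 63271692), a zinc finger factor that sets the sinusoidal identity of liver ECs, had 168 CPM in WT ECs, 176 in YAPKO, 246 in TAZKO and 172 in DKO. In HCs it was 2.50 to 10.1 CPM, 3.35 to 6.65 times the share of EC marker RNA there, and 1.75 to 7.20 CPM remained in HCs without endothelial UMIs. Maf (chromosome 8, 115682942 to 115707794), which encodes the basic leucine zipper factor c-Maf, had 2624 CPM in WT ECs, 2633 in YAPKO, 3902 in TAZKO and 3559 in DKO. KCs had 856, 820, 1516 and 915 CPM in the same order. For Maf, too, leaving out KCs with endothelial UMIs changed little (808 to 1517 CPM). T cells without endothelial UMIs had 80.4 to 215 CPM of Maf, and macrophages or monocytes 284 to 484 CPM.

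Hepatic stellate cells could not be read in this way. The cluster named from their markers carried EC markers at 60.4% to 78.8% of the EC level, and the members followed, from 44.2% for the lowest Lyve1 value to 90.3% for the highest Ehd3 value. Across 57 sums of a cell type in a library, the genes whose pattern was most like the mean profile of the members were Kdr (Pearson's r = 0.990), Eng (0.989), Npr1 (0.988), Aqp1 (0.987) and Plekhg1 (0.986). Kdr and Eng are among the markers that named the ECs, and the sums share libraries and carried EC RNA. Among the members, r ranged from 0.927 for Maf and 0.940 for Mrc1 and Gata4 to 0.990 for Stab1.

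The members were then compared between ECs with and without a Vwf UMI within each mouse, which gives 4 paired differences, 1 per genotype. Of the 10 members, 9 were lower in ECs with a Vwf UMI and Gata4 did not pass the test. ECs with a Vwf UMI numbered 41 in WT, 85 in YAPKO, 26 in TAZKO and 53 in DKO, against 1924, 1258, 1741 and 1230 without. Their median depth was 6102, 7647, 5719 and 5399 UMIs, against 5114, 7524, 3816 and 5675. Summed UMIs were tested with edgeR's quasi-likelihood test with the library as a term and Benjamini-Hochberg adjustment over 11480 genes. Of these, 5.04% were called lower and 5.21% higher at an adjusted p under 0.05. The median log2 fold change was -1.02 over the members and -0.01 over all genes tested. How many of all genes had groups without overlap was not counted. All 10 members passed the filter on low counts.

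Lyve1 had the lowest fitted ratio. It was 348 CPM with a Vwf UMI and 784 without in WT, 341 and 984 in YAPKO, 315 and 724 in TAZKO, and 127 and 413 in DKO. Every library was lower with Vwf, and the groups did not overlap. The log2 fold change was -1.43 (SE 0.12, edgeR adjusted p = 2.97e-24). Stab2 was 747 CPM with and 1457 without in WT, 715 and 1360.3 in YAPKO, 504 and 1313 in TAZKO, and 415 and 1328 in DKO. Its log2 fold change was -1.23 (SE 0.11, edgeR adjusted p = 1.73e-21). Stab1 ranged from 362 to 724 CPM with Vwf and from 931 to 1329.8 CPM without, a log2 fold change of -1.08 (SE 0.11, edgeR adjusted p = 7.10e-18). Both stabilins were lower in 4 of 4 libraries.

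The other receptors and Oit3 moved in the same direction. Fcgr2b fell from 3223 to 1831 CPM in WT, from 2769.6 to 1446 in YAPKO, from 2708 to 819.8 in TAZKO and from 3138 to 1101 in DKO, with a log2 fold change of -1.23 (SE 0.11, edgeR adjusted p = 4.61e-22). Mrc1 ranged from 714 to 1198 CPM with Vwf and from 1697 to 2240 CPM without (log2 fold change -0.97, SE 0.10). Clec4g ranged from 1184 to 2443 CPM with and from 2609 to 4214 CPM without (-0.97, SE 0.10). Oit3 ranged from 249 to 532 CPM with and from 785 to 974 CPM without (-1.06, SE 0.11). The edgeR adjusted p was 6.15e-16 for Mrc1, 5.60e-16 for Clec4g and 6.52e-16 for Oit3, and each was lower in 4 of 4 libraries without overlap of the groups.

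Ehd3, Maf and Gata4 had the smallest fitted differences, although differences between members were not tested. Ehd3 had 3025 CPM with and 3731 without in WT, 2821 and 3237 in YAPKO, 2018 and 4438 in TAZKO, and 1621 and 2887 in DKO, so that the groups overlapped although each library was lower with Vwf. Its log2 fold change was -0.62 (SE 0.10, edgeR adjusted p = 4.64e-07). When the test was limited to the largest EC cluster, it was -0.31 with an adjusted p of 0.0799. Maf lay between 1726 and 1828 CPM with Vwf in all 4 libraries and between 2647 and 3946 CPM without, a log2 fold change of -0.86 (SE 0.10, edgeR adjusted p = 6.41e-13). Gata4 had 180.0 CPM with and 167 without in WT, 159 and 177 in YAPKO, 140.1 and 249 in TAZKO, and 155 and 173 in DKO. Its log2 fold change was -0.21 (SE 0.13, edgeR adjusted p = 0.374). WT was higher with Vwf and the other libraries lower, and the TAZKO value with Vwf rests on 20 UMIs.

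**Figure D2:**
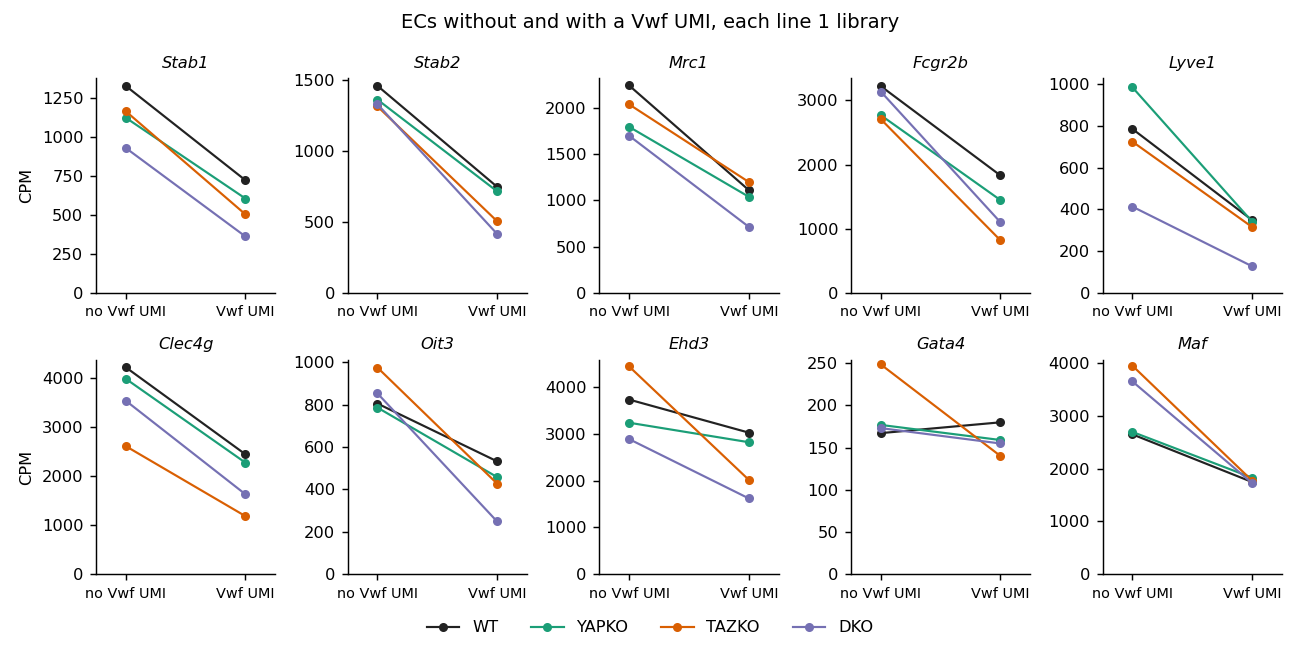
Level of each member (CPM, axes from 0) in ECs without and with a Vwf UMI; each line joins the values of 1 library. All 4 lines fall for 9 members, and for Gata4 the WT line rises from 167 to 180.0 CPM.

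Levels of most members were lower in cells with more Vwf UMIs. Relative to ECs without Vwf in the same library, Stab2 was at 68.1% ± 17.3 (SD, n = 4 libraries) in ECs with 1 Vwf UMI, at 45.0% ± 10.2 with 2 to 4, and at 16.01% ± 10.2 with 5 or more. Fcgr2b was at 61.3% ± 15.4, 45.7% ± 13.7 and 20.1% ± 8.37, and Oit3 at 74.5% ± 19.5, 50.2% ± 17.0 and 19.95% ± 11.1. Stab1 was at 71.4% ± 19.9, 44.4% ± 6.30 and 29.6% ± 2.07. Lyve1 was at 71.7% ± 29.9, 25.7% ± 14.0 and 26.1% ± 9.54, without a further step at 5 or more. Ehd3 was at 77.1% ± 19.3, 76.9% ± 19.6 and 41.8% ± 22.8. Gata4 was at 78.7% ± 18.1, 104% ± 25.9 and 71.1% ± 45.8, a spread too wide to read an order from. The class with 1 Vwf UMI held 77 cells in all, that with 2 to 4 held 78, and that with 5 or more held 50, with 6 to 31 cells per library and class. These levels by class were not tested.

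**Figure D3:**
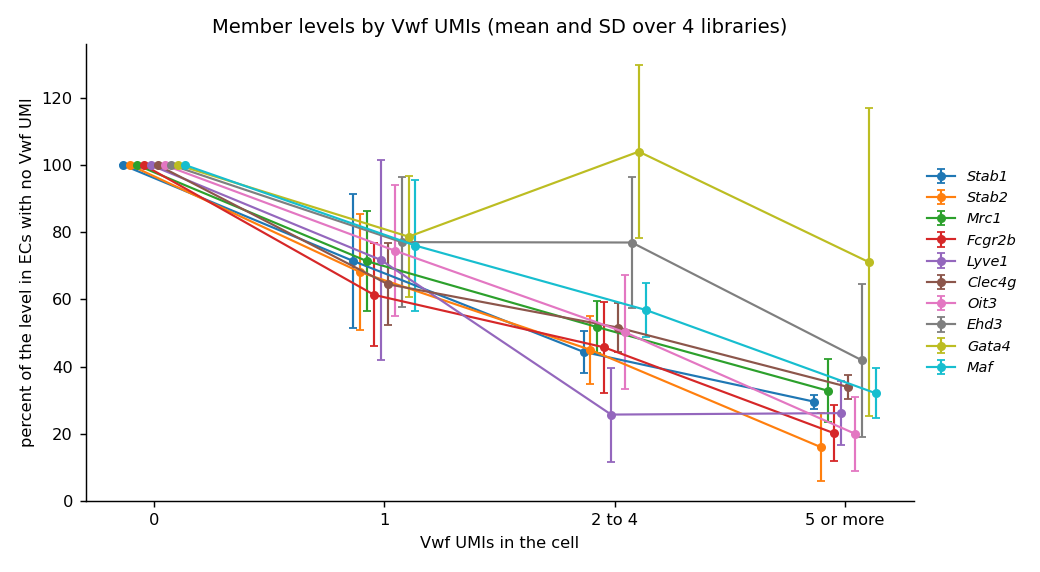
Member level as a percentage of the level in ECs without Vwf in the same library (vertical axis) against the Vwf UMIs of the cell (horizontal axis); points are means and bars SDs over 4 libraries. Stab2, Fcgr2b and Oit3 reach 16.01% to 20.1% at 5 or more Vwf UMIs, and Gata4 stays within 71.1% to 104%.

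The members found per cell were counted after thinning each EC to 2000 UMIs, which left out 5 shallower ECs with Vwf and 549 without, 243 of the latter in TAZKO. In the cells kept, ECs without Vwf had a median of 9 of the 10 members in WT, YAPKO and TAZKO and of 8 in DKO. ECs with Vwf had a median of 7 members in WT and YAPKO and of 5 in TAZKO and DKO. At least 5 members were found in 99.1% to 99.8% of the ECs without Vwf in the 4 libraries. With Vwf the share was 80.0% in WT (95% interval 64.4 to 90.9, Clopper-Pearson), 83.5% in YAPKO (73.9 to 90.7), 62.5% in TAZKO (40.6 to 81.2) and 62.7% in DKO (48.1 to 75.9). At the same depth it was 0.488% to 3.75% of B cells, which should lack the program apart from Fcgr2b, and 87.8% to 96.0% of the cells of the stellate cluster that held EC markers. The count thus does not separate a cell's own transcripts from carried ones. The ECs formed a large cluster and a small cluster of 41 to 52 cells per library. The small cluster held 17 of the 41 Vwf ECs of WT, 45 of the 85 of YAPKO, 17 of the 26 of TAZKO and 31 of the 53 of DKO. Within the large cluster, with 9 to 40 Vwf ECs per library, 8 members were still called lower and their log2 fold changes ranged from -0.77 for Lyve1 to -0.45 for Oit3.

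Markers of other cells in the same groups were compared. HC markers summed to 1024 to 4330.0 CPM in ECs with Vwf and 971 to 4483 CPM without, stellate cell markers to 315 to 394 and 326 to 415 CPM, and KC markers to 47.0 to 82.9 and 30.1 to 56.4 CPM. With Vwf, KC markers were higher in YAPKO, TAZKO and DKO and lower in WT, HC markers were higher in YAPKO and DKO and lower in WT and TAZKO, and stellate cell markers were higher in DKO and lower in the other libraries. The 7 lymphatic endothelial genes fixed as a list summed to 288 to 399 CPM with Vwf and 718 to 846 CPM without, lower with Vwf in 4 of 4 libraries like the members. Flt4, which sinusoidal ECs also express, made up 277 to 379 CPM and 710.3 to 837 CPM of these sums. The part of these markers in the result was not tested. In ECs with Vwf, 13 of 20 tested genes of continuous or capillary endothelium were called higher and 1 lower. Edn1, the endothelin gene, was 200 to 291 CPM with Vwf and 1.02 to 17.0 CPM without (log2 fold change 5.22, SE 0.20). Ly6c1 rose by 4.31 (SE 0.16), Cd9 by 2.14 (SE 0.10) and Ly6a by 2.12 (SE 0.11) on the log2 scale. The largest adjusted p of these 4 in edgeR was 3.62e-47.

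A list of other genes of endocytosis and scavenging holds receptors, the adaptor Dab2, EHD proteins and lysosomal proteases. Of its 18 tested genes, 7 were called lower, 3 higher and 8 were not called, with a median log2 fold change of -0.21. The 7 lower were the receptors Cd209b, Cd302, Clec1b and Fcgrt, with Dab2 and the proteases Ctsl and Lgmn, and the 3 higher were the EHD genes. Those outside the 4 with the largest fold change were named after their values were seen. Clec1b, a lectin of platelets and sinusoidal ECs, fell by 1.22 on the log2 scale (SE 0.12, edgeR adjusted p = 3.00e-17). Cd209b, a lectin of the DC-SIGN family, had 0 UMIs with Vwf in 3 libraries and 2 in YAPKO, against 54 to 235 UMIs without (edgeR adjusted p = 3.07e-05). Ehd1, Ehd2 and Ehd4 are paralogs of Ehd3. Ehd1 rose by 0.61 on the log2 scale (SE 0.17, edgeR adjusted p = 0.00589). Ehd4 was 147 to 264 CPM with Vwf and 46.2 to 68.7 CPM without (log2 fold change 1.63, SE 0.14), and Ehd2, the caveolar member, was 3.83 to 161 CPM with and 0.540 to 1.45 CPM without, on 1 to 29 and 4 to 10 UMIs. The edgeR adjusted p was 2.12e-23 for Ehd4 and 3.50e-28 for Ehd2. Among 19 tested endothelial transcription factors, 4 were called higher and 1 lower. Klf4 and Sox17 rose by 1.40 (SE 0.12) and 1.303 (SE 0.13) on the log2 scale, with edgeR adjusted p of 4.72e-21 and 2.94e-17. Klf2 rose by 0.43 (SE 0.10) and Tcf4 fell by 0.41 (SE 0.10). Of the lymphatic genes, 3 could be tested, and Flt4 was called lower (-1.13, SE 0.11, edgeR adjusted p = 3.27e-18).

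Part of the program also differed between ECs gated as pericentral and as periportal. ECs without Vwf were taken as pericentral with a UMI of Wnt2, Wnt9b, Rspo3, Kit, Cdh13 or Plpp1 and none of Efnb2, Dll4, Ntn4, Ltbp4, Adgrg6 or Msr1, and as periportal in the reverse case. Pericentral ECs numbered 199 in WT, 103 in YAPKO, 236 in TAZKO and 189 in DKO, and periportal ECs 124, 39, 162 and 44. Stab2, Stab1, Lyve1 and Oit3 were higher in pericentral ECs, and the other 6 members did not pass the test. Of 6899 genes tested, 4.04% were called higher in pericentral ECs and 3.8% lower. The median log2 fold change was 0.20 over the members and -0.01 over all genes. Genes without overlap of the groups were not counted here either. Pericentral ECs were deeper, with a median of 2945 to 5860 UMIs against 2218 to 4238.5 UMIs. The periportal gate gene Ltbp4 was itself called higher in ECs with Vwf (log2 fold change 1.47, SE 0.11). Adgrg6 was, like Vwf, among the top genes of the small EC cluster. ECs of that cluster without a Vwf UMI were not left out. The part of depth and of larger-vessel ECs in the result was not tested.

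Stab2 was 1674 CPM in pericentral and 819 CPM in periportal ECs of WT, 1537 and 711 in YAPKO, 1613 and 693 in TAZKO, and 1522 and 716 in DKO. The groups were far apart in every library, and the log2 fold change was 1.08 (SE 0.10, edgeR adjusted p = 3.93e-12). Stab1 was 1601 and 849.9 CPM in WT, 1307 and 809 in YAPKO, 1344 and 801 in TAZKO, and 975 and 669 in DKO (log2 fold change 0.70, SE 0.10, edgeR adjusted p = 8.41e-07). Oit3 was higher by 0.52 (SE 0.11, edgeR adjusted p = 3.75e-04), with 786 to 989.9 CPM in pericentral and 530 to 719 CPM in periportal ECs. Each of these genes was higher in 4 of 4 libraries without overlap of the groups.

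Lyve1 differed by library. It was 853 CPM in pericentral and 374 CPM in periportal ECs of WT and 1061 and 359 in YAPKO, but 573 and 479 in TAZKO and 334 and 302 in DKO. Within a library, the log2 ratio was 1.19 (95% interval 0.92 to 1.47) in WT, 1.56 (1.12 to 2.04) in YAPKO, 0.26 (0.02 to 0.50) in TAZKO and 0.15 (-0.28 to 0.60) in DKO. Periportal levels thus lay between 302 and 479 CPM in all libraries, and the pericentral levels were spread from 334 to 1061 CPM. The fitted log2 fold change over the 4 libraries was 0.74 (SE 0.14, edgeR adjusted p = 8.17e-05), and without WT it was 0.59 with an adjusted p of 0.0550. Whether the ratio differs between genotypes was not tested, since each has 1 mouse.

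For the remaining members the log2 fold changes were 0.23 for Mrc1 (SE 0.10), 0.16 for Clec4g (SE 0.09), 0.11 for Fcgr2b (SE 0.09), 0.05 for Maf (SE 0.09), -0.10 for Ehd3 (SE 0.10) and -0.18 for Gata4 (SE 0.14). Their edgeR adjusted p ranged from 0.184 for Mrc1 to 0.868 for Maf. Mrc1 was higher in the pericentral ECs of WT, TAZKO and DKO and had 1588 and 1634 CPM in YAPKO. Without YAPKO it was called, with a log2 fold change of 0.34 and an adjusted p of 0.0232.

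**Figure D4:**
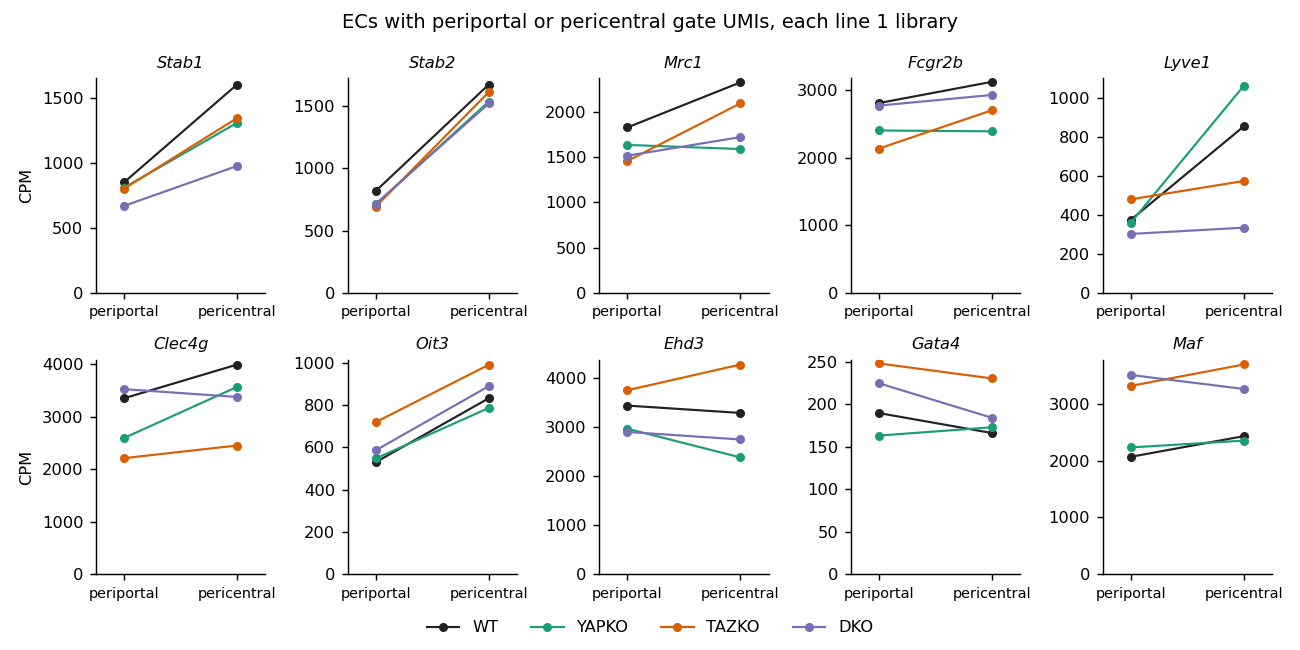
Level of each member (CPM, axes from 0) in ECs with periportal and with pericentral gate UMIs; each line joins the values of 1 library. All 4 lines rise for Stab1, Stab2, Lyve1 and Oit3, steeply for Lyve1 in WT and YAPKO and little in DKO, where it goes from 302 to 334 CPM.

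In the same contrast, 2 of 12 tested genes of the list of endocytosis and scavenging were called higher in pericentral ECs, Fcgrt, the neonatal Fc receptor (log2 fold change 0.65, SE 0.11), and Clec1b (0.42, SE 0.13). Cd36, a fatty acid and scavenger receptor, was called lower (-1.10, SE 0.12) with 212 to 830 CPM in pericentral and 667 to 1566 CPM in periportal ECs. The edgeR adjusted p was 8.83e-06 for Fcgrt, 0.0364 for Clec1b and 8.41e-11 for Cd36. Of 17 transcription factors, Sox7 (1.03, SE 0.24) and Tfec (0.67, SE 0.21) were called higher and Sox17 lower (-0.78, SE 0.23). Genes of continuous or capillary endothelium were divided, with 7 of 16 called higher and 6 lower, among them Cd34 (-2.90, SE 0.33), Efnb1 (-2.75, SE 0.15), Ly6a (-2.69, SE 0.12) and Ccn2 (-1.68, SE 0.29). Flt4 was called higher (0.54, SE 0.11).

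Between the libraries, few members differed in ECs by the limit of 1.5-fold. Of the 10, 0 passed it in YAPKO, where 3.96% of 10111 genes with at least 100 UMIs were higher and 4.34% lower than in WT. In TAZKO, Clec4g was lower, with a log2 ratio to WT of -0.69 (95% interval -0.72 to -0.67), against 14.2% of genes higher and 6.52% lower. In DKO, Lyve1 was lower, with -0.95 (-1.01 to -0.89), against 5.83% of genes higher and 6.05% lower. The median log2 ratio of all genes was 0.05 in YAPKO, 0.18 in TAZKO and 0.07 in DKO, and that of the members was -0.12, -0.12 and -0.22. Relative to the median of all genes, Clec4g in TAZKO was at -0.87 and Lyve1 in DKO at -1.02. These comparisons share the WT library.

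**Figure D5:**
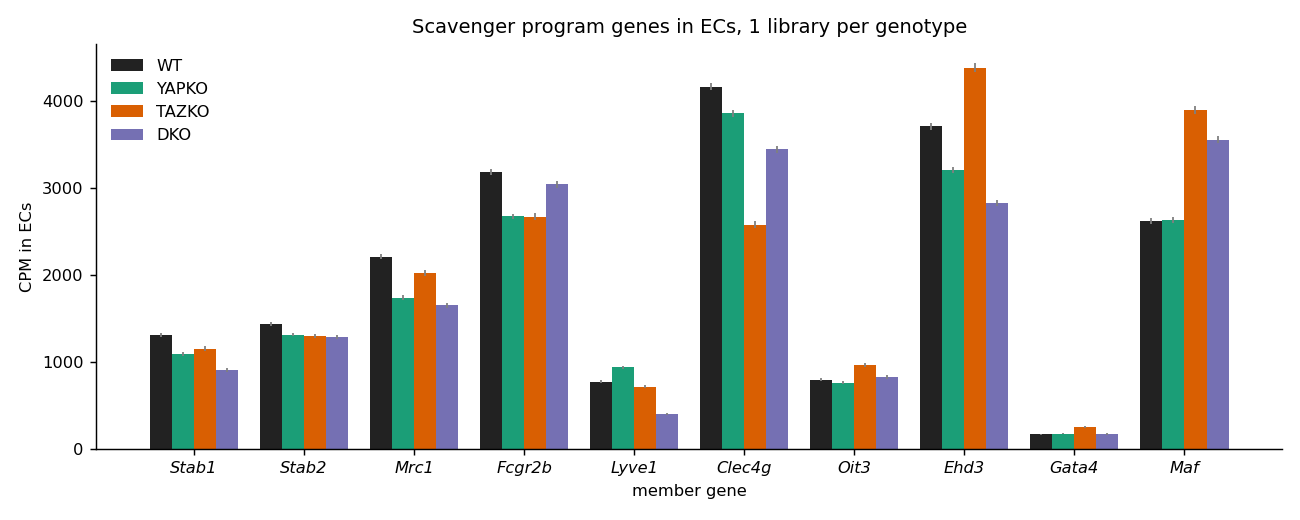
Level of each member in ECs (CPM) by library; bars are 1 library each and error bars 95% Poisson intervals of the count, which do not cover differences between mice. Lyve1 is lowest in DKO at 399 CPM, Clec4g lowest in TAZKO at 2580.1 CPM, and Maf lowest in WT and YAPKO at 2624 and 2633 CPM.

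The ratios of the members compare single libraries, and most were within the limit of 1.5-fold. Stab1, Stab2, Mrc1, Fcgr2b and Clec4g were below WT in all 3 knock-out libraries, with Stab1 at -0.27 (-0.31 to -0.23) in YAPKO, -0.19 (-0.23 to -0.15) in TAZKO and -0.54 (-0.58 to -0.50) in DKO, and Mrc1 at -0.35 (-0.37 to -0.32), -0.13 (-0.16 to -0.10) and -0.42 (-0.45 to -0.39). The share of all genes below WT in all 3 libraries was not counted. With the limits on cells read as UMIs, Clec4g in YAPKO turned from -0.11 to 0.03. Maf was at 0.00 (-0.02 to 0.03) in YAPKO, 0.57 (0.55 to 0.60) in TAZKO and 0.44 (0.42 to 0.46) in DKO. Gata4 was at 0.07 (-0.03 to 0.16), 0.56 (0.46 to 0.65) and 0.04 (-0.06 to 0.15). Lyve1 was at 0.28 (0.24 to 0.32) in YAPKO and -0.11 (-0.16 to -0.06) in TAZKO. Ehd3 was lower in YAPKO and DKO, at -0.21 and -0.39, and higher in TAZKO at 0.24. Oit3 was at -0.06 (-0.11 to -0.02) in YAPKO, 0.27 (0.23 to 0.32) in TAZKO and 0.05 (0.00 to 0.10) in DKO.

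In KCs, Maf and Mrc1, the members with the highest KC levels, were both highest in TAZKO. The stabilins, also above the carried EC RNA, had their highest KC level in DKO for Stab1 (66.1 CPM, against 65.99 in TAZKO) and in TAZKO for Stab2 (116 CPM). Against WT, Maf was at 0.82 (0.78 to 0.87) and Mrc1 at 0.57 (0.52 to 0.62) in TAZKO. Over all genes the median KC value there was 0.23. In YAPKO they were at -0.06 (-0.11 to -0.01) and 0.02 (-0.03 to 0.07), and in DKO at 0.10 (0.04 to 0.15) and -0.11 (-0.17 to -0.06). Maf thus was higher than in WT in both the ECs and the KCs of the TAZKO library, which was also the shallowest, and in those of DKO. It was not particular to these cells. Without endothelial UMIs, Maf in TAZKO was 32.2 CPM in HCs (12.4 in WT), 140 in T cells (80.4) and 433 in macrophages or monocytes (284). In YAPKO and DKO it was 24.2 and 17.7 CPM in HCs and 407 and 484 in macrophages or monocytes. T cells had 81.4 CPM in YAPKO, close to WT, and 215 in DKO. Over all T cells, Maf was lower in YAPKO than in WT, at 92.1 against 118 CPM. In plasmacytoid dendritic cells without endothelial UMIs, Maf was lower in TAZKO, at 24.4 against 47.2 CPM.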

How the data were processed

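The authors aligned 10x 3′ v3.1 reads to mm10 with Cell Ranger (6.0.1 in the submitters' processing notes, 4.0.0 in the matrix headers) and deposited raw UMI counts, not normalized, for each gene and barcode. Cells with 500 to 6000 genes and no more than 10% mitochondrial UMIs were kept. The study states these limits in transcripts. Read as UMIs, they gave 401 YAPKO ECs in place of 1343. Seurat 5.3.0 (R 4.3.3) used 2000 variable genes without the 10 members, 20 principal components, an own implementation of Harmony by library and resolution 0.4, giving 20 clusters named from marker lists without the members. Doublets were kept in the main analysis. Clusters with EC markers at 30% or more of the EC level were set apart, a limit set after seeing the data. UMIs were summed per library and tested with edgeR 4.0.16 (TMM, filterByExpr, library as a term); SEs come from the fold change and its F statistic. The 4 mice, of different genotype, are the replicates of these contrasts. The tests were tested on simulated data with 200 changed genes. DESeq2 1.42.0 was an alternative. Intervals were exact at 95%. Coordinates came from GENCODE release M21 (GRCm38). All 10 members and the genes named at most 4 per list, by size of fold change among those called, follow a written rule. Members and lists were chosen with earlier results of these data known. Python 3.11.15 was used for other steps.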

Additional observations from a re-analysis of the deposited data

How the results depend on the processing

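The direction of all 9 called members of the Vwf contrast held under each of its 19 alternatives, and 9 members stayed called in all but 2 of them: without the replicate block (no library term), 7 were called, with Clec4g at an adjusted p of 0.0945 and Ehd3 at 0.258, and in the largest EC cluster 8 were called. The size moved more: the log2 fold change ranged from -2.81 to -0.77 for Lyve1 and from -2.17 to -0.69 for Fcgr2b. For Oit3 it ranged from -2.04 to -0.45 and for Stab2 from -1.83 to -0.54. Counts of all genes called in that contrast (1177) moved to 705 with DESeq2, 262 in the largest EC cluster, 696 with ECs taken by marker UMIs, 316 without the replicate block, 507 and 528 with ECs thinned before and after the split, and 393 with the limits read as UMIs; leaving out each library gave 815 to 1031. In the zone contrast, 4 members stayed called except without the replicate block, where 1 was called (Stab2, with the pairing by mouse left out), and with a library left out, where 3 to 5 were. Over its 15 alternatives the log2 fold change was 0.65 to 0.77 for Stab1, 0.50 to 0.63 for Oit3 and 0.56 to 0.97 for Lyve1. Its 541 called genes moved to 229 with DESeq2, 115 without the replicate block, and 309 to 525 with a library left out. Maf, not called there, turned to -0.0031 at resolution 0.8. In the genotype ratios, 2 members passed the fold in TAZKO with limits read as UMIs and with the mean over cells (Clec4g and Maf), and 2 in DKO at resolution 0.8 and with the ratio shifted by the median of all genes (Lyve1 and Stab1). The cause of these changes was not tested. The KC level of Fcgr2b moved from 47.8 to 304 CPM without batch correction, where KCs held EC markers at 8.81% to 14.4% of the EC level in place of 0.83% to 2.24%. The largest EC cluster and thinning after the split were added after seeing the data. The largest cluster held 9 to 40 Vwf ECs per library. No value stood apart among the 4 libraries in 20 sets of differences by Dixon's test.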

Other observations

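Cells outside ECs gave further values. Plasmacytoid dendritic cells carried EC markers at 16.1% to 25.1% of the EC level, and their members lay at 0.705 to 1.12 times that share. A cluster with neutrophil markers carried EC markers at 81.5% to 89.0% of the EC level in the 3 libraries with at least 30 of its cells, and its members lay at 0.872 to 1.35 times that share. In a KC cluster with EC markers at 34.8% to 44.5% of the EC level, Mrc1 lay at 1.52 to 1.75 times and Maf at 1.28 to 1.75 times that share, and the other 8 members at 0.848 to 1.17 times. The part of doublets and of cells held together in these values was not tested.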
